A study of Mus musculus with 7 samples.

Results

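Ribosomal protein genes encode the proteins that, with the ribosomal RNAs, make up the large and the small subunit of the cytoplasmic ribosome. They were chosen as the protein-coding genes of GENCODE M21 (mouse, mm10) whose symbols start with Rpl or Rps followed by a number, with Rplp0, Rplp1, Rplp2 and Rpsa and without the Rps6k kinases and the mitochondrial Mrp genes. Of 21951 protein-coding genes 92 met this rule: 43 proteins of the large subunit, 31 of the small subunit, 3 of the P stalk, 8 paralogs, 6 genes with a pseudogene name and Rps19bp1, which encodes a binding partner of a ribosomal protein. RNA had been precipitated with an EZH2 antibody from mouse embryonic stem cells and sequenced (RIP-seq). By its title, the series concerns a monoclonal antibody made against human EZH2 that also recognises SAFB, a nuclear protein that binds RNA and chromatin.

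All cells were male CAST/B6 embryonic stem cells of the Rosa26-RMCE line and had 3 days of doxycycline, in the controls too; what it induced was not stated. Wild type (WT, n = 3) was the parental line with clones 20 and 44. EZH2 KO (n = 2) was clones 12 and 19, which lack the histone methyltransferase EZH2. SAFB DKO (n = 2) was clones 13 and 4, which lack both Safb and its paralog Safb2. Every replicate was thus a line or clone of its own, and the p-values measure the spread between clones. The shallowest library was EZH2 KO clone 12 with 7050832 counts, and clone 19 had 8353603. The SAFB DKO clones had 18738499 and 15812517 counts, and no WT library had fewer than 19024702 or more than 21832539. The EZH2 KO columns of the deposited table were named by another pattern than the rest, and genotype and any separate handling of these libraries cannot be told apart.

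Ribosomal protein mRNAs are among the most abundant mRNAs of growing cells. Most belong to the 5' TOP class, whose transcripts start with a cytosine and a run of pyrimidines that lets growth signals set their translation. Their genes are short, have many small introns and often carry snoRNA genes inside those introns, and each has processed pseudogenes elsewhere in the genome. SAFB and SAFB2 bind purine-rich RNA in the nucleus, and EZH2 is the catalytic subunit of Polycomb repressive complex 2.

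Starts of 4 members are shown because their pyrimidine tract is the feature the family is best known for. Each run gives 60 bases before and 20 from the RefSeq start (GRCm38.p6), 5' to 3', with the tract that holds the start in capitals.
Rps15a (chr7:118116128-118116207, minus strand): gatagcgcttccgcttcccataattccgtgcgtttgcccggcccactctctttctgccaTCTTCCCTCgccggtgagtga
Rps6 (chr4:86857348-86857427, minus strand): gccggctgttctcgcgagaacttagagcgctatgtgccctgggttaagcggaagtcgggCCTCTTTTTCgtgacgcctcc
Rplp2 (chr7:141447591-141447670, plus strand): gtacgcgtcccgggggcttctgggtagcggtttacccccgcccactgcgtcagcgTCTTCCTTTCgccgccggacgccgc
Rps27 (chr3:90213629-90213708, minus strand): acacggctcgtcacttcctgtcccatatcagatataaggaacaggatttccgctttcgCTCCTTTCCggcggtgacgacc
In these 4 the annotated start is a C followed by at least 4 pyrimidines, read on the transcribed strand. The RefSeq table held 78 starts of 66 members, and 14 of them (17.9%) had this form, against 823 of 32851 starts of all genes (2.51%) and 0 of 75 starts of mitochondrial ribosomal protein genes. A start that is off by 1 base can lose the match, so this share describes the annotation. The 12 tested members with such a start had a median log2 fold change against WT of 0.50 when SAFB was missing and -0.55 when EZH2 was missing; the 42 with other starts had 0.64 and -0.78.

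The next 3 coding stretches show what was counted within exons: each is a counted interval that lies wholly in coding sequence (GENCODE M21 transcripts, mm10). Capitals mark GAAGA, a purine motif searched on the transcribed strand.
Rps24 (chr14:24492021-24492116, plus strand): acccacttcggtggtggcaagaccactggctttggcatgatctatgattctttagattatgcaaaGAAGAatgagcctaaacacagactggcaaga
Rps26 (chr10:128626140-128626215, minus strand): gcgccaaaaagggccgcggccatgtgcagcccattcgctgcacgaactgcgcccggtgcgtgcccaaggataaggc
Rps4x (chrX:102187837-102187928, minus strand): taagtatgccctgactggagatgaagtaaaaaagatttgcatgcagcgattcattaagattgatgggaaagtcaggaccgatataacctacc
GAAGA occurred in 2 of the 5 wholly coding intervals of ribosomal protein genes and in 2474 of 7176 of all genes (34.5%). The Rps24 interval had 25.3, 21.8 and 21.8 CPM (counts scaled to a common library size) in WT. It had 39.2 and 41.6 CPM in SAFB DKO and 7.82 and 7.23 in EZH2 KO. All 3 genotypes were separate. Against WT the log2 fold change was 0.81 without SAFB (SE 0.19, adjusted p = 0.0047) and -1.61 without EZH2 (SE 0.22, adjusted p = 2.0e-04).

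Some members cannot be told from their copies by sequence. Rps27rt, an intronless copy of Rps27, had 1 interval, shown with the matching stretch of the transcripts of Rps27 and Rps27l. Capitals mark bases that differ from Rps27rt.
Rps27rt (chr9:114982573-114982653, minus strand): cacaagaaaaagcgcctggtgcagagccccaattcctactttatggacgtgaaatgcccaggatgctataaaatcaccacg
Rps27: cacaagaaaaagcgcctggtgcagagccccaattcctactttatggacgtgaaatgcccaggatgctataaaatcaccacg
Rps27l: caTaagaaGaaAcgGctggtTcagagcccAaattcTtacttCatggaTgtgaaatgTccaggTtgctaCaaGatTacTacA
Rps27 was identical to Rps27rt over all 81 bases, and Rps27l differed at 16 (80.2% identity). Counts of Rps27rt may therefore come from Rps27 mRNA, and values of members with close copies or pseudogenes are uncertain in this respect. The column names mark the alignments as filtered. What this filter did to reads that match several copies was not examined.

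The counted features are intervals that the authors named after the WT precipitate, so a level is precipitated RNA within those intervals and not expression. Of the 92 genes 75 had a feature that overlapped them and no other gene on their strand, among 18887 such genes in all. Another 14 had only features shared with a second gene, and 3 (Rpl10-ps3, Rpl36-ps4 and Rps12-ps3) had none. The 75 genes held 134 exonic features, in 74 genes, and 21 intronic features, in 15 genes. Exonic here means that at least 1 base lies in an exon, and intronic that none does. Of the 134, 108 also covered bases outside exons, in introns or beyond the gene, and the median exonic share was 46.8% of bases. Of the 155 features 0 were in the authors' short list of peaks and 1 (in an intron of Rpl11) was in their filtered list, against 3.3% and 11.1% of all features. After the filter on low counts 73 genes could be tested by their exons and 15 by their introns; Rpl9-ps1, with 0 to 1.5 CPM in any library, could not.

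The targeted genes matched the labels. Exons of Ezh2 had 0.601 and 0 CPM in EZH2 KO, against 104.5, 125.9 and 110.5 in WT; SAFB DKO had 108.2 and 130.6. Exons of Safb had 1.41 and 0.592 CPM in SAFB DKO, 284.0 and 313.9 in EZH2 KO and 238.6, 244.8 and 117.3 in WT, where clone 44 had the lowest level. Exons of Safb2 had 1.6 and 0.323 CPM in SAFB DKO, 178.0 and 215.0 in EZH2 KO and 111.5, 113.2 and 64.8 in WT. They rose in EZH2 KO against WT (log2 fold change 1.03, SE 0.27). Of 9 embryonic stem cell markers 8 had exonic features, with counts in every library and a summed level of 755.0 to 1411.1 CPM; Sox2 was the one without. Of 8 fibroblast feeder markers 3 and of 8 endoderm and differentiation markers 4 had such features, with summed levels of 3.15 to 10.1 and 2.52 to 10.4 CPM. Most stem cell markers changed in the directions given below for most ribosomal protein exons. In SAFB DKO 6 of 8 rose and 1 fell, where 20.0% of all genes tested by their exons rose and 21.7% fell. In EZH2 KO 2 rose and 6 fell, where 18.1% of all genes rose and 27.3% fell. Whether the markers and the ribosomal protein exons changed together was not tested.

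In precipitates without SAFB and SAFB2, exons of ribosomal protein genes were mostly higher than in WT, and in precipitates without EZH2 they were mostly lower. Together the exonic features took 0.374%, 0.366% and 0.372% of all counts in the WT libraries (exact 95% Clopper-Pearson intervals 0.3718 to 0.377, 0.3639 to 0.369 and 0.3695 to 0.375). Without SAFB they took 0.715% (0.7112 to 0.7188) and 0.707% (0.7029 to 0.7112). Without EZH2 they took 0.178% (0.1744 to 0.1806) and 0.170% (0.1669 to 0.1725). The 3 genotypes did not overlap, and their means were 0.371 ± 0.00412% (SD, n = 3), 0.711 ± 0.00564% (n = 2) and 0.174 ± 0.00557% (n = 2). In such bulk precipitates a change in the cells, in RNA per cell and in the other RNA that was precipitated cannot be told apart. A spike-in was listed for every sample and was not used for scaling. The exact intervals hold counting error alone: duplicates of a molecule could not be recognised.

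**Figure D1:**
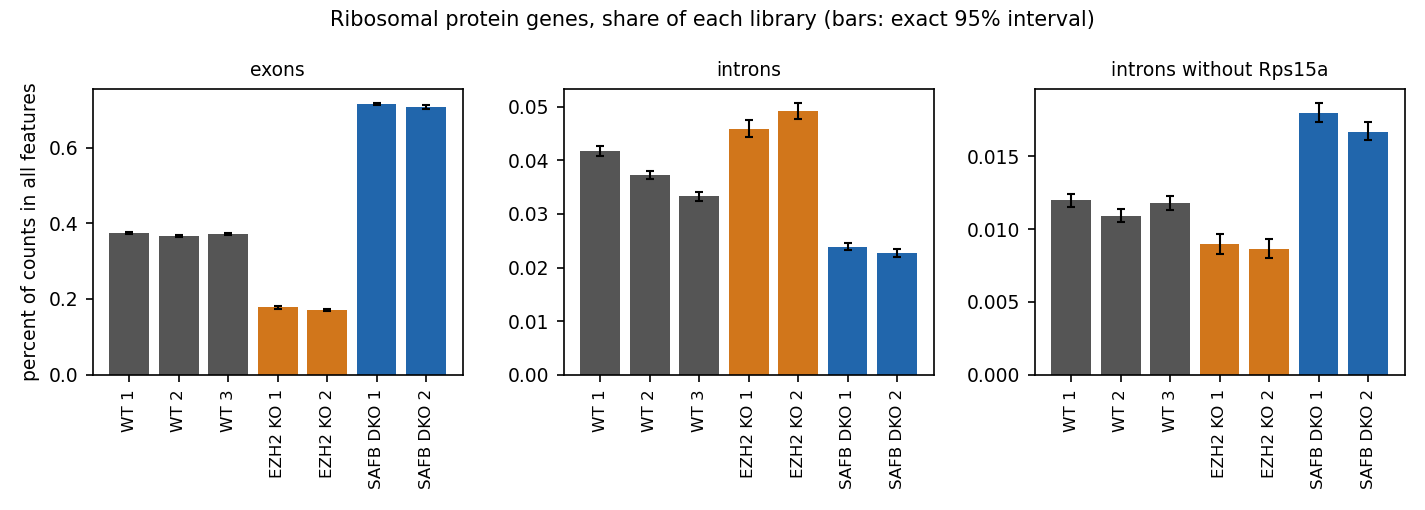
Percent of each library's counts (y axis, from 0) in exonic features (left), intronic features (middle) and intronic features other than that of Rps15a (right) of ribosomal protein genes, with the exact 95% interval, one bar a library. The exonic share was 0.707% or more in SAFB DKO, 0.366% to 0.374% in WT and 0.178% or less in EZH2 KO.

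By gene, exons of 42 of 73 ribosomal protein genes rose and 3 fell in SAFB DKO against WT, where 20.0% of all 15243 genes tested by their exons rose and 21.7% fell (edgeR's quasi-likelihood test, Benjamini-Hochberg adjusted p under 0.05 over all genes). The median log2 fold change was 0.59 for these 73 genes and 0.08 for all genes. In EZH2 KO against WT 1 rose and 46 fell, where 18.1% of all genes rose and 27.3% fell, with medians of -0.75 and -0.19. The 2 comparisons share the WT libraries. Between the knockouts, 50 of the 73 were higher and 4 lower in SAFB DKO than in EZH2 KO, where 37.2% and 28.8% of all genes were, with medians of 1.41 and 0.27. Another scaling moves all genes together: on column totals the medians of all genes were 0.30 in SAFB DKO and -0.44 in EZH2 KO. Relative to all genes, the median of the 73 lay 0.51 higher in SAFB DKO under both scalings, and 0.56 (0.57 on column totals) lower in EZH2 KO. With a mean of at least 50 counts required, these distances were 0.42 in SAFB DKO and -0.53 in EZH2 KO. Of the 11284 genes then tested by their exons, 3129 rose and 2580 fell in SAFB DKO, and 2456 rose and 3870 fell in EZH2 KO.

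Both subunits showed these directions. Of 34 large-subunit genes 18 rose and 2 fell in SAFB DKO, with a median of 0.53, and 22 fell in EZH2 KO, with a median of -0.67. Of 26 small-subunit genes 18 rose and 1 fell in SAFB DKO, with a median of 0.65, and 18 fell in EZH2 KO, with a median of -0.84. No gene of either subunit rose in EZH2 KO by edgeR, and at an unadjusted p under 0.05 the count was 0 as well; the highest log2 fold change was 0.41. Over all 73 genes DESeq2 called 1 rise there. A difference between the subunits was not tested.

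**Figure D2:**
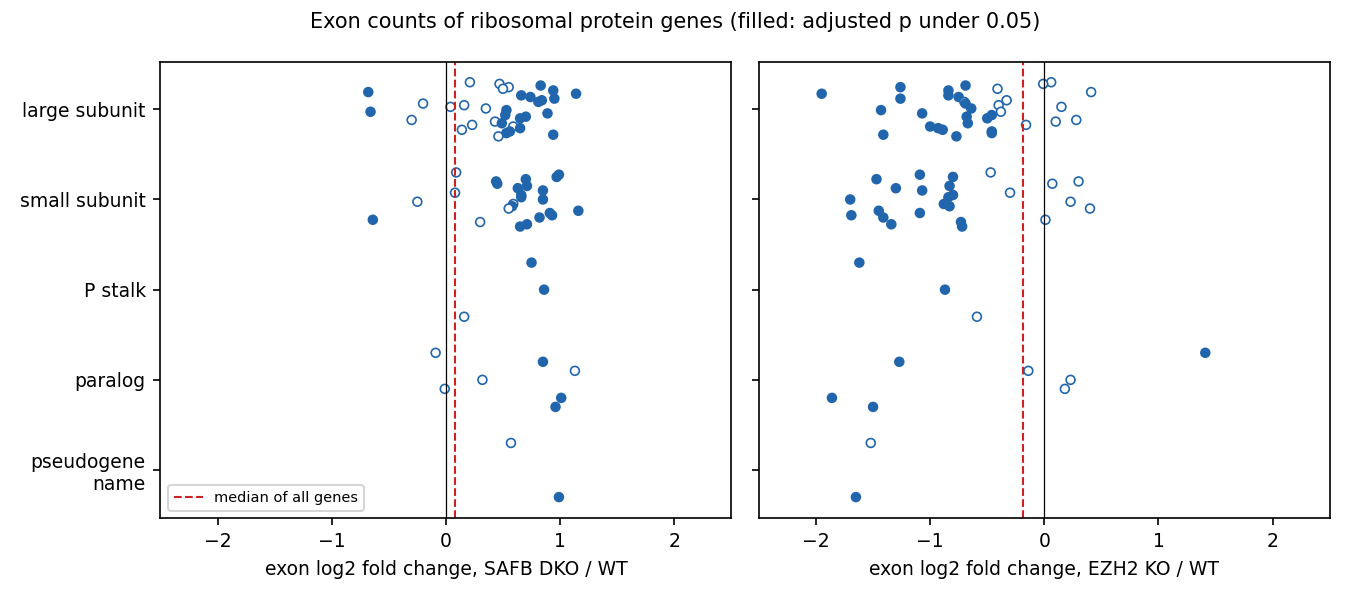
Log2 fold change of exon counts (x axis) of each tested ribosomal protein gene by role (rows), in SAFB DKO (left) and EZH2 KO (right) against WT, with filled points for adjusted p under 0.05, a solid line at 0 and a dashed line at the median of all genes; Rps16, which had no counts in EZH2 KO, and Rps19bp1 are not drawn. Filled points lie mostly right of 0 in SAFB DKO (42 of 73) and left of it in EZH2 KO (46 of 73).

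The P stalk is the arm of the large subunit that recruits translation factors. Rplp0, its base, had exon levels of 218.7, 196.2 and 204.9 CPM in WT (206.6 ± 11.4), 346.1 and 348.2 in SAFB DKO (347.2 ± 1.44) and 64.8 and 69.2 in EZH2 KO (67.0 ± 3.11). No library of one genotype reached the range of another. Its log2 fold change was 0.75 (SE 0.12, adjusted p = 2.0e-04) in SAFB DKO and -1.62 (SE 0.13, adjusted p = 8.5e-06) in EZH2 KO. Rplp1, an acidic stalk protein, moved in the same directions, with 0.86 and -0.87, both past the threshold. Its partner Rplp2 had 0.16 (adjusted p = 0.656) and -0.59 (adjusted p = 0.136).

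Among the 74 genes with exonic features of their own, Rpl8 had the highest exon level per length in WT. Rpl8, a protein of the large subunit near its catalytic centre, had 354.1 ± 14.2 CPM per kb of counted features. Rpsa, a small-subunit protein also known as a laminin receptor, followed with 299.2 ± 23.0 and Rpl7 with 199.6 ± 10.7. Rps26 (193.1 ± 13.9) lay within the spread of Rpl7. At the lower end were Rpl3l (1.0), Rps29 (2.01) and Rpl36a (2.03). These levels mix exonic bases with bases in introns or beyond the gene, since most features hold bases outside exons. Features shared with another gene are outside this order: 1 of Rpl4 had 597.6 and 1 of Rpl13 had 476.8 CPM per kb in WT. Rpl8 had 446.2, 414.3 and 419.7 CPM in WT, 829.5 and 807.3 in SAFB DKO and 140.9 and 181.2 in EZH2 KO, again without overlap. That is 0.94 (SE 0.13, adjusted p = 5.1e-05) and -1.41 (SE 0.14, adjusted p = 1.7e-05) on the log2 scale.

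**Figure D3:**
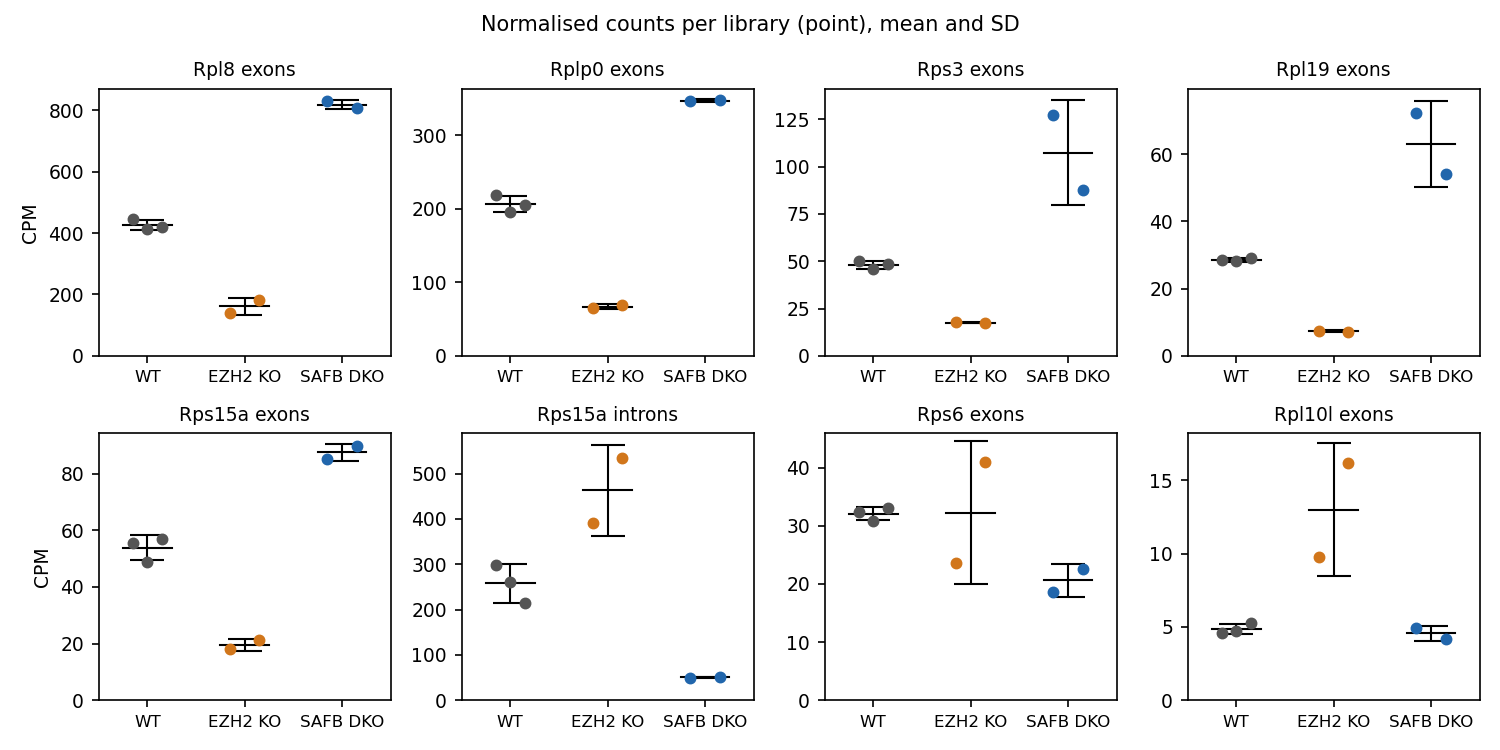
CPM (y axis, from 0) of 8 gene parts in each library (points), with the mean (line) and SD (bars) by genotype (x axis; WT n = 3, EZH2 KO n = 2, SAFB DKO n = 2). Exons of Rpl8, Rplp0, Rps3, Rpl19 and Rps15a are highest in SAFB DKO and lowest in EZH2 KO, and introns of Rps15a are the reverse. The exon mean of Rps6 was lowest in SAFB DKO, with EZH2 KO (32.3) near WT (32.1). That of Rpl10l was highest in EZH2 KO, with SAFB DKO (4.56) near WT (4.87).

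The largest exon rises in SAFB DKO, among genes with at least 10 CPM in WT, were those of Rps3, Rpl19, Rps27l, Rps14 and Rpl9-ps6. Rps3, which sits where mRNA enters the small subunit, had 50.2, 45.9 and 48.5 CPM in WT and 127.0 and 87.9 in SAFB DKO (1.16, SE 0.16, adjusted p = 6.2e-05). Both knockout libraries were above WT and differed from each other by more than the WT libraries did. Rpl19 of the large subunit had 28.5, 28.1 and 29.2 CPM in WT and 72.2 and 54.0 in SAFB DKO (1.14, SE 0.16, adjusted p = 6.7e-05). Rps14, a protein of the small subunit's platform, rose by 0.99, as did Rpl9-ps6, a single-exon gene with a pseudogene name. Rps27l, a paralog of Rps27, rose by 1.01.

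Several of these genes also led the falls in EZH2 KO. Rpl19 had 7.52 and 7.23 CPM there (-1.95, SE 0.20, adjusted p = 2.5e-05), Rps27l fell by 1.86 and Rpl9-ps6 fell by 1.65. Rps26, which lies at the mRNA exit of the small subunit, had 76.6, 72.6 and 83.6 CPM in WT and 20.4 and 27.5 in EZH2 KO (-1.70, SE 0.17, adjusted p = 1.8e-05). Rps4x, an X-linked small-subunit gene, had 72.8, 76.0 and 72.5 CPM in WT and 22.7 and 23.0 in EZH2 KO (-1.69, SE 0.14, adjusted p = 1.1e-05). Rps16 had 36 counts over the WT libraries and 0 in EZH2 KO, at least 2.54-fold lower when 3 counts over the group stand for 0. It did not pass the test (adjusted p = 0.0558), and the median of the 73 genes stayed at -0.75 with Rps16 at that bound.

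Among the 3 exon falls in SAFB DKO were Rpl31 and Rps6. Rpl31, near the exit of the peptide tunnel, had 14.5, 16.2 and 17.5 CPM in WT against 10.1 and 10.3 in SAFB DKO (-0.66, SE 0.21, adjusted p = 0.0239). Its exonic feature spans 1623 bases, of which 559 are exonic and the rest lie beyond the annotated end of the gene. Rps6, the small-subunit substrate of S6 kinase, had 32.4, 30.8 and 33.0 CPM in WT against 18.6 and 22.6 (-0.64, SE 0.21, adjusted p = 0.0249). In both genes the SAFB DKO libraries lay below each WT library. Neither passed on column totals, with TMM over all gene parts or by DESeq2, where their values ran from -0.44 to -0.36, and with each of 7 libraries left out in turn each of them passed 3 times. In EZH2 KO Rpl10l alone rose by this test, a testis-expressed copy of Rpl10, from 4.6, 4.75 and 5.27 CPM to 9.77 and 16.2 (1.41, SE 0.28, adjusted p = 0.00138).

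Paralogs are set beside their parent genes here, and differences within a pair were not tested. Rpl22 rose in SAFB DKO (0.74) and fell in EZH2 KO (-0.75), and Rpl22l1 likewise had 0.85 and -1.27, all past the threshold. Rps27l rose and fell as given above, while Rps27 had -0.25 (adjusted p = 0.307) and 0.23 (adjusted p = 0.371). Rps27rt had 0.96 (adjusted p = 0.00252) and -1.50 (adjusted p = 0.00101), although its sequence equals that of Rps27 there. The single Rps27 feature spans 3609 bases, of which 407 are exonic, so the 2 values are of different kinds of interval. Rpl7 had 0.53 and -0.46, both past the threshold, while Rpl7l1 had -0.01 and 0.18. Rpl39 fell in EZH2 KO (-1.0, adjusted p = 0.0109). Rpl39l, at 1.88 to 2.09 CPM in WT, was not called there (-0.14, adjusted p = 0.856) or in SAFB DKO (1.13, adjusted p = 0.0557). Rpl36a and Rpl3l were not called, and Rpl10 and Rpl36al had no feature of their own.

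Features of every exon content moved in the same directions. Of 25 wholly exonic features 12 rose in SAFB DKO (all genes, 5.55% of 15348) and 15 fell in EZH2 KO (all genes, 12.6%), with medians of 0.72 and -1.51. Of 37 at least 50% exonic, 22 rose in SAFB DKO (5.24% of all), and 26 fell and 1 rose in EZH2 KO (2.76% of all rose and 15.4% fell), with medians of 0.80 and -1.12. Of 67 less exonic features, 21 rose and 1 fell in SAFB DKO (3.27% of all rose and 9.33% fell), and 24 fell in EZH2 KO (10.7% of all), with medians of 0.54 and -0.62. The fall in EZH2 KO thus had its lowest median in wholly exonic features; the differences between classes were not tested. Over all genes the medians in these classes were 0.20, 0.35 and 0.16 in SAFB DKO and -0.43, -0.68 and -0.38 in EZH2 KO. Features of 1 gene share its RNA and are not independent.

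Few introns of ribosomal protein genes were called in either direction. Of the 15 genes tested 3 rose and 2 fell in SAFB DKO, where 0.843% of all 9848 genes rose and 45.1% fell, with medians of 0.34 and -0.92. In EZH2 KO 1 rose and 3 fell, where 26.9% rose and 9.17% fell, with medians of -0.05 and 0.26. Between the knockouts 6 were higher and 2 lower in SAFB DKO, where 8.28% and 50.3% of all genes were. All intronic features together took 0.0375 ± 0.00426% of counts in WT, less in SAFB DKO (0.0233 ± 0.000848%) and more in EZH2 KO (0.0476 ± 0.00239%). Without Rps15a the order turned, with 0.0116 ± 0.000554% in WT, more in SAFB DKO (0.0174 ± 0.000925%) and less in EZH2 KO (0.00881 ± 0.0002%). The intron of Rps15a thus set the order of the summed share. The intron counts rest on how a feature is classed: with features under 50% exonic counted as intron, 26 of 57 genes rose and 3 fell in SAFB DKO, and 1 rose and 24 fell in EZH2 KO.

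That intron belongs to Rps15a, a protein of the small-subunit platform (chr7:118104372-118116188, minus strand). Its feature (chr7:118111051-118114262) spans 3212 of the 4766 bases of its longest intron. It had 299.3, 261.3 and 213.4 CPM in WT, 49.8 and 50.5 in SAFB DKO and 391.9 and 533.9 in EZH2 KO, and so held more counts in WT than all other intronic features of the family together. The genotypes were separate, and within WT clone 44, which also had the lowest Safb, was lowest; the part of Safb level in this was not tested. In SAFB DKO the feature fell (log2 fold change -2.36, SE 0.18, adjusted p = 4.2e-07) and in EZH2 KO it rose (0.84, SE 0.16, adjusted p = 0.0012). Both calls were kept with each of the 7 libraries left out in turn.

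Exons of Rps15a went the other way, with 55.6, 48.8 and 57.0 CPM in WT, 85.3 and 89.7 in SAFB DKO and 17.9 and 21.1 in EZH2 KO. Their log2 fold changes were 0.70 (SE 0.14, adjusted p = 0.00121) and -1.47 (SE 0.16, adjusted p = 3.3e-05). A direct test of exons against introns in 1 model gave a difference of 3.06 (SE 0.18, adjusted p = 2.2e-07) in SAFB DKO and -2.31 (SE 0.19, adjusted p = 3.2e-05) in EZH2 KO. Within the exons, a 78-base interval of the last exon that overlaps coding sequence (chr7:118109090-118109167) had 1.06 and -2.56, both past the threshold. The 3 intervals further along the long last exon had -0.07 to 0.31 in SAFB DKO, with no call, and -0.58 to -1.30 in EZH2 KO, where 1 of them fell.

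**Figure D4:**
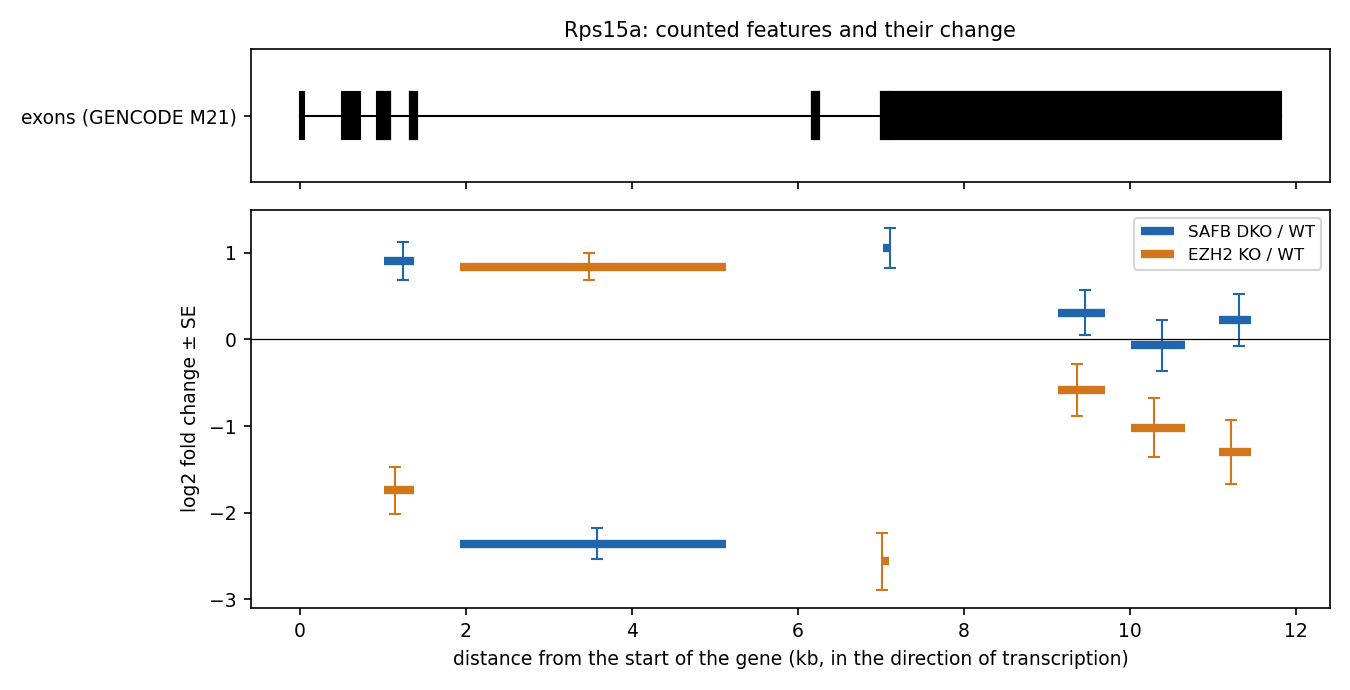
Exons of Rps15a (top, black boxes) and the log2 fold change ± SE (bottom, y axis) of each of its 6 counted features against WT, by distance from the gene start in kb (x axis); the length of a bar is the length of the feature. The long intronic feature lies at -2.36 in SAFB DKO and 0.84 in EZH2 KO, opposite to the features at coding exons.

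The other introns were far lower. Introns of Rpl11, a 5S ribonucleoprotein partner that also binds MDM2, had 3.72, 2.87 and 2.24 CPM in WT and 0.547 and 0.969 in SAFB DKO (-1.97, SE 0.48, adjusted p = 0.00483), a call lost without SAFB DKO replicate 1 (-1.61, adjusted p = 0.0541). Of its 2 intronic features, the one in the authors' filtered list had -2.66 (adjusted p = 0.0663) and the other -1.75 (adjusted p = 0.0267). Introns of Rpl26 had -0.63 in SAFB DKO (adjusted p = 0.0865). Its only such feature (chr11:68905862-68907085) runs past the annotated end of the gene (68906989). It is intronic only in that it holds no exonic base. Rises of introns in SAFB DKO were called for Rps7 (0.72, SE 0.20, adjusted p = 0.0104), Rps24 (0.69, SE 0.19, adjusted p = 0.00904) and Rpl38 (0.46, SE 0.18, adjusted p = 0.0488). Without WT replicate 1 or SAFB DKO replicate 1 none of the 3 passed. Of the 7 fits that leave out 1 library, Rps7 and Rps24 passed in 5 and Rpl38 in 2, those without an EZH2 KO library.

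In EZH2 KO the intron falls were those of Rpl3 (-2.09, SE 0.52, adjusted p = 0.00615), Rpl37 (-1.15, SE 0.36, adjusted p = 0.0220) and Rpl26 (-0.85, SE 0.31, adjusted p = 0.0443). The Rpl26 value is that of the feature that runs past the gene end. Rpl3, whose protein lies at the peptidyl transferase centre, had 4.96, 3.76 and 5.17 CPM in WT and 0.451 and 1.73 in EZH2 KO over an interval of 92 bases. The call of Rpl37 was lost without WT replicate 1 or 3 or EZH2 KO replicate 1, and that of Rpl26 without any WT replicate or EZH2 KO replicate 2. By mean level in WT, Rps15a (258.0 CPM) was followed by Rpl38 (14.9), whose protein is known for its part in translating Hox mRNAs, and Rpl5 (14.3), the other 5S partner.

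Exons and introns of the same gene could be compared in 14 members. In SAFB DKO exons were higher relative to introns in 4 and lower in 1, where 38.1% and 4.68% of 8442 genes were, with medians of 0.17 and 0.77. Besides Rps15a these were Rpl11 (2.42, SE 0.52, adjusted p = 0.00238), Rpl26 (1.51, SE 0.31, adjusted p = 0.00156), Rpl19 (1.04, SE 0.28, adjusted p = 0.00920) and, with exons lower, Rpl31 (-1.04, SE 0.29, adjusted p = 0.0122). For Rpl26 the intron side is the feature that runs past the gene end. For Rpl31 the exon side is the feature that lies mostly beyond the gene. In EZH2 KO exons were higher in 1 and lower in 4, where 7.38% and 23.8% of all genes were, with medians of -0.65 and -0.35. Rpl19 (-2.1, SE 0.33, adjusted p = 5.9e-04), Rps19 (-1.39, SE 0.28, adjusted p = 0.00273), a gene mutated in Diamond-Blackfan anaemia, and Rps24 (-0.77, SE 0.23, adjusted p = 0.0230) were lower beside Rps15a, and Rpl3 was higher (1.46, SE 0.47, adjusted p = 0.0317). Some of these calls rest on single libraries. In SAFB DKO the calls of Rpl19 and Rpl31 held in 5 of the 7 fits without 1 library. Rpl19 was lost without WT replicate 2 (0.95) or SAFB DKO replicate 2 (0.84), and Rpl31 without WT replicate 2 (-1.01) or SAFB DKO replicate 1 (-0.84). In EZH2 KO those of Rps24 and Rpl3 held in 4 of 7. Rps24 was lost without WT replicate 1 (-0.68), WT replicate 2 (-0.77) or EZH2 KO replicate 1 (-0.68). Rpl3 was lost without WT replicate 1 (1.38), WT replicate 3 (1.45) or EZH2 KO replicate 1 (0.93), and was 2.52 without EZH2 KO replicate 2. With features counted as exonic only where at least 50% of their bases are, the Rps19 difference was -0.27 (adjusted p = 0.596).

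**Figure D5:**
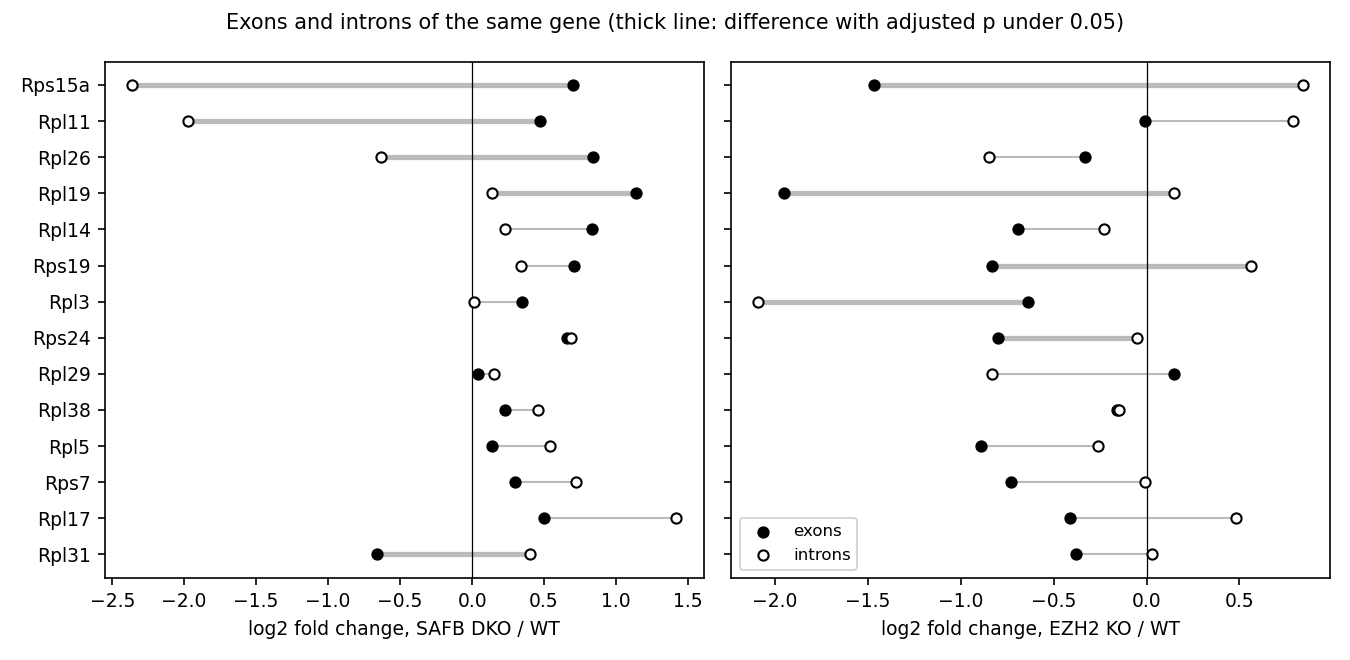
Log2 fold change (x axis) of exons (filled) and introns (open) of the 14 genes with both (rows), in SAFB DKO (left) and EZH2 KO (right) against WT, joined by a thick line where the difference had an adjusted p under 0.05. Rps15a has the widest gap in both panels, 3.06 and -2.31.

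Features that a member shares with another gene held 42.5% of the counts at these genes, and 34 of these 45 features covered a gene of type snoRNA or scaRNA in GENCODE M21. Snord43, listed there as a miRNA, is not counted. All 45 could be tested: 20 rose and 0 fell in SAFB DKO, where 2.26% of all 192964 features rose and 17.4% fell, and 0 rose and 18 fell in EZH2 KO, where 7.5% of all rose and 8.07% fell. At an unadjusted p under 0.05, 0 fell in the first comparison and 2 rose in the second by edgeR, and DESeq2 was not run on features. A feature of Rpl13a that covers Snord32a, Snord33, Snord34 and Snord35a had 486.8, 449.2 and 420.9 CPM in WT, 835.6 and 695.1 in SAFB DKO and 221.0 and 239.7 in EZH2 KO (0.76, adjusted p = 2.3e-04, and -0.97, adjusted p = 1.5e-04). The Rps3 feature with Snord15b had 0.90 and -1.24, both past the threshold. The largest, in Rpl4, had 976.5, 1045.1 and 861.4 CPM in WT, 953.5 and 879.6 in SAFB DKO and 899.0 and 997.0 in EZH2 KO, with no call. In such features mRNA, intron and snoRNA reads cannot be told apart.

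Related genes give the setting, counted by their exons unless stated. Of all genes tested by their exons, 20.0% rose and 21.7% fell in SAFB DKO. The shares in EZH2 KO were 18.1% and 27.3%. Exons of 16 of 23 translation factors and partners known for 5' TOP mRNAs rose and 1 fell in SAFB DKO (median 0.77), and 1 rose and 18 fell in EZH2 KO (median -0.96). In this list Eif3e, a subunit of an initiation factor, had 0.76 and -1.97, both past the threshold. Naca, which encodes a nascent-chain partner of the ribosome, went the other way, from 655.5 ± 69.9 CPM in WT to 111.4 ± 8.83 in SAFB DKO (-2.56, SE 0.14, adjusted p = 8.4e-08) and 908.8 ± 31.3 in EZH2 KO (0.47, SE 0.12, adjusted p = 0.00864). Of 23 initiation factors 13 rose and 3 fell in SAFB DKO (median 0.58), and 22 fell in EZH2 KO (median -0.98); without SAFB DKO replicate 2 there were 7 rises and without WT replicate 1 there were 8. Examples called in both comparisons were Eif5a (0.81 and -1.66) and Eif4e (0.78 and -1.61).

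Exons of 73 mitochondrial ribosomal protein genes, which serve another ribosome, were tested. In SAFB DKO 23 rose and 3 fell (median 0.48), where, as for the next lists, 20.0% of all genes rose and 21.7% fell. In EZH2 KO 8 rose and 31 fell (median -0.66), where 18.1% of all genes rose and 27.3% fell. With each library left out in turn, 8 (without SAFB DKO replicate 1) to 40 (without either EZH2 KO replicate) rose in SAFB DKO. Mrpl30 had 0.74 and -2.20, both past the threshold, and Mrpl55 had -2.05 in EZH2 KO. Of 50 genes of ribosome assembly and RNA polymerase I 15 rose and 8 fell in SAFB DKO (median 0.11), and 4 rose and 31 fell in EZH2 KO (median -0.59). With WT replicate 1 or 2 left out 6 rose in SAFB DKO, and with SAFB DKO replicate 1 left out 4 did. Utp14a fell in SAFB DKO (-1.47) and rose in EZH2 KO (0.56), and Nop56, a snoRNP core protein, fell in EZH2 KO (-2.07). Of 44 pseudogenes of ribosomal protein genes 23 rose and 9 fell in SAFB DKO (median 0.82), and 2 rose and 27 fell in EZH2 KO (median -1.10), and 11 (without SAFB DKO replicate 1) to 28 rose in SAFB DKO with a library left out. Their reads may come from the parent mRNAs. Of 4 noncoding snoRNA hosts tested by their exons only Snhg11 was called, with 0.82 and -0.85. By their introns 2 hosts were tested: 0 were called in SAFB DKO and 2 fell in EZH2 KO (median -2.97). No test compared these lists with the ribosomal protein genes.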

How the data were processed

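Per the file headers, the deposited values are raw counts from featureCounts 2.0.3 with reverse strand, over 303889 intervals and without normalization. The build was mm10, per the submitters' processing notes; aligner and peak caller are not stated. The 3 control-antibody value columns match no sample and were left out.

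Features were assigned by strand to GENCODE M21 (basic), and the exonic and intronic features of exactly 1 gene were summed to gene parts. All 25091 gene parts left by filterByExpr were fitted in 1 model of 7 libraries with edgeR 4.0.16 (quasi-likelihood F-test, R 4.3.3). Library sizes were column totals times TMM factors from features outside the authors' filtered list. "Rose" and "fell" mean a Benjamini-Hochberg adjusted p under 0.05 over all gene parts, or over all features for single features. Exon against intron was an interaction term with the library as a block. Errors are SD for CPM and SE for log2 fold changes (n = 3 for WT, 2 for each knockout). Scripts were tested on simulated data.

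The genes, lists and tests were chosen with earlier results of these data known. Named were Rpl8, Rplp0 and Rps15a, exon calls against the majority, the largest called exon and intron changes, the largest exon against intron differences, the highest levels, paralog pairs and the largest 2 changes of related lists; other names were chosen after their values were seen. Alternatives were other scalings, DESeq2 1.42.0, filters, definitions of exonic features and leaving out each library. The values of 1 gene are not reported here.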

Additional observations from a re-analysis of the deposited data

How the results depend on the processing

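The exon directions of ribosomal protein genes, a median above 0 in SAFB DKO and below 0 in EZH2 KO, were kept under the scalings, DESeq2 and both stricter definitions of exons. With column totals, TMM over all gene parts or DESeq2, the 3 exon falls in SAFB DKO became 0, the 4 falls against EZH2 KO became 2, and the 3 intron rises became 8. Column totals also gave 0 single exon features that fell in SAFB DKO, and 2 lower and 12 intron features higher than in EZH2 KO. With features counted as exonic from 50% exonic bases, fewer genes could be tested by exons (41): 25 rose and 0 fell in SAFB DKO, 29 fell in EZH2 KO, and 33 were higher and 1 lower between the knockouts. Under that rule 26 introns rose in SAFB DKO, 24 fell in EZH2 KO, 33 were higher and 4 lower between the knockouts, and the exon against intron counts were 0 lower in SAFB DKO and 0 higher and 7 lower in EZH2 KO. It turned the intron values of Rpl11 to 0.29 against WT and 0.16 against EZH2 KO, of Rpl26 to 0.60 against WT and of Rps19 to 0.86 against EZH2 KO, since features that were exonic joined them. Wholly exonic features only, chosen after seeing the data, left 20 genes: 13 rose and 0 fell in SAFB DKO, 0 rose and 14 fell in EZH2 KO, and 17 were higher and 0 lower between the knockouts. Core genes alone had 0 rises in EZH2 KO, a mean of at least 50 counts left 1 intron fall in SAFB DKO and 1 against EZH2 KO, and a fit of WT and SAFB DKO alone, also added later, gave 5 intron rises.

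As a percent of counts in features of 1 gene, exonic shares of WT, EZH2 KO and SAFB DKO were 0.439, 0.211 and 0.802. Intronic shares were 0.0443, 0.0578 and 0.0263 in that order, without Rps15a 0.0137, 0.0107 and 0.0196, and shared features 0.377, 0.241 and 0.560. The orders were those of the shares of all counts.

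With each library left out in turn, the counts for SAFB DKO against WT that moved by over 1.5 times were exons 0 to 4 fell, introns 0 to 5 rose, the exon against intron difference 0 to 1 exon lower, single exon features 0 to 4 fell, single intron features 0 to 3 rose and 1 to 3 fell. Among related lists they were endoderm and differentiation markers 0 to 1 fell, initiation factors 7 to 14 rose, ribosome assembly and RNA polymerase I 4 to 20 rose, snoRNA host noncoding RNAs 0 to 1 fell, mitochondrial ribosomal protein genes 8 to 40 rose and 3 to 6 fell, ribosomal protein pseudogenes 11 to 28 rose and 4 to 9 fell. For EZH2 KO against WT they were exons 1 to 2 rose, introns 1 to 3 fell and 1 to 2 rose, the exon against intron difference 0 to 1 exon higher, single exon features 1 to 2 rose, single intron features 0 to 4 fell. Among related lists they were fibroblast feeder markers 0 to 1 fell, ribosome assembly and RNA polymerase I 1 to 4 rose, snoRNA host noncoding RNAs 0 to 1 rose and 1 to 2 fell, mitochondrial ribosomal protein genes 4 to 8 rose, ribosomal protein pseudogenes 2 to 4 rose. For SAFB DKO against EZH2 KO they were single intron features 3 to 8 rose. Rps6 exons in EZH2 KO turned to -0.51 without EZH2 KO replicate 2. Without WT replicate 1 or SAFB DKO replicate 1 no intron rise in SAFB DKO was left. The cause of these changes was not tested. The EZH2 KO libraries had the lowest depth, and differences not called there may not be detectable at this depth.

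A fit with the replicate number as a block, which pairs WT and EZH2 KO replicates 1 and 2, gave 1 exon rise and 41 falls, and 1 intron rise and 3 falls. Deviations of same-numbered libraries from their group means correlated at 0.0489 and -0.002. With 2 EZH2 KO libraries the values across numbers are the same with the sign turned. These correlations cannot decide whether the number pairs the libraries.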
